A study of Rattus norvegicus with 23 samples.

Results

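Dorsal root ganglia were compared 148 h after transection of the sciatic nerve with intact ganglia, on 3 arrays of a series that holds 23. Every array took lesioned RNA in Cy5 and intact RNA in Cy3 on the same slide, so that a positive log2 ratio means a higher level in lesioned ganglia. The direction was read from these dyes, and no array had the dyes exchanged. The lesioned ganglia came from Long-Evans rats operated on postnatal days 20 to 24, from which the L4 and L5 ganglia were taken. The comparator carried no lesion, and the labels do not say whether it came from the other side of the same rats. The other arrays served as a background for the 148 h ratios: 15 from the first day (4, 8, 12, 18 and 24 h, 3 arrays each), 3 from 48 h and 2 from 296 h, of which 1 carries a time label of 294 h. GEO's sample labels conflict, since the source names cultured cells and the dye protocol a cAMP treatment, whereas the surgery was done in animals and their ganglia were collected directly. They also do not say whether the 3 arrays at 148 h came from separate animals, so the spread behind the p-values, which is estimated from the arrays of all times together, may be technical.

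Sensory neurons of the dorsal root ganglion send one branch to the periphery and another into the spinal cord. When the peripheral branch is cut, the cell body is known to change its peptides, its receptors for growth factors and its cytoskeleton, while macrophages gather around the injured cell bodies and the satellite glia that wrap them respond. Galanin and neuropeptide Y are scarce in intact sensory neurons and are standard markers of the axotomized state. A prior lesion of this kind, called a conditioning lesion, is known for preparing the central branch to grow. In RNA from whole ganglia, fewer cells of a type and less RNA per cell cannot be told apart, and the deposited ratios hold no absolute level of any gene.

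The 3 arrays at 148 h were unlike those of the first day in completeness and spread. Of 5088 probes, arrays 1, 2 and 3 measured 2063, 4077 and 3251. A total of 1867 probes were measured on all 3 arrays, 1320 on 2, 1150 on 1 and 751 on none, and the 3187 measured on at least 2 arrays were tested. The standard deviation of the log2 ratios was 1.61, 1.32 and 1.45 on the 3 arrays, while no first-day array exceeded 0.803. Across probes, which are not independent replicates, the ratios of array pairs correlated with Pearson's r of 0.443 (arrays 1 and 2, 1980 probes), 0.498 (arrays 1 and 3, 1923 probes) and 0.491 (arrays 2 and 3, 3018 probes). The 53 spots for Gapdh, a glycolytic enzyme used as a loading control, had fitted log2 ratios between -0.22 and 0.38 and none was past the threshold.

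A total of 291 of 3187 tested probes (9.13%) passed an adjusted p of 0.05 at 148 h in limma's moderated test, fitted with a weight for each array. Of these, 165 were higher in lesioned ganglia (5.18%) and 126 were lower (3.95%). These shares are the background for each count of list members at 148 h below. The 245 probes with a gene name stood for 243 genes, and 46 probes carried no name. The called probes had large fitted ratios: the median size was 2.01 on the log2 scale, 278 probes exceeded 1 and 54 exceeded 3. The smallest called size was 0.77. Small changes could hardly pass on arrays of this spread, so these sizes describe the called probes only. When only the 1867 probes measured on all 3 arrays were fitted, the balance turned, with 121 higher and 146 lower. Leaving out array 1, 2 or 3 lowered the count to 198, 128 or 88 probes. The call depended on borrowing the probe variance from the other times. When the 3 arrays at 148 h were fitted alone, no probe passed after adjustment, and the methods' t-test gave 417 probes unadjusted and 0 after Benjamini-Hochberg adjustment.

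**Figure D1:**
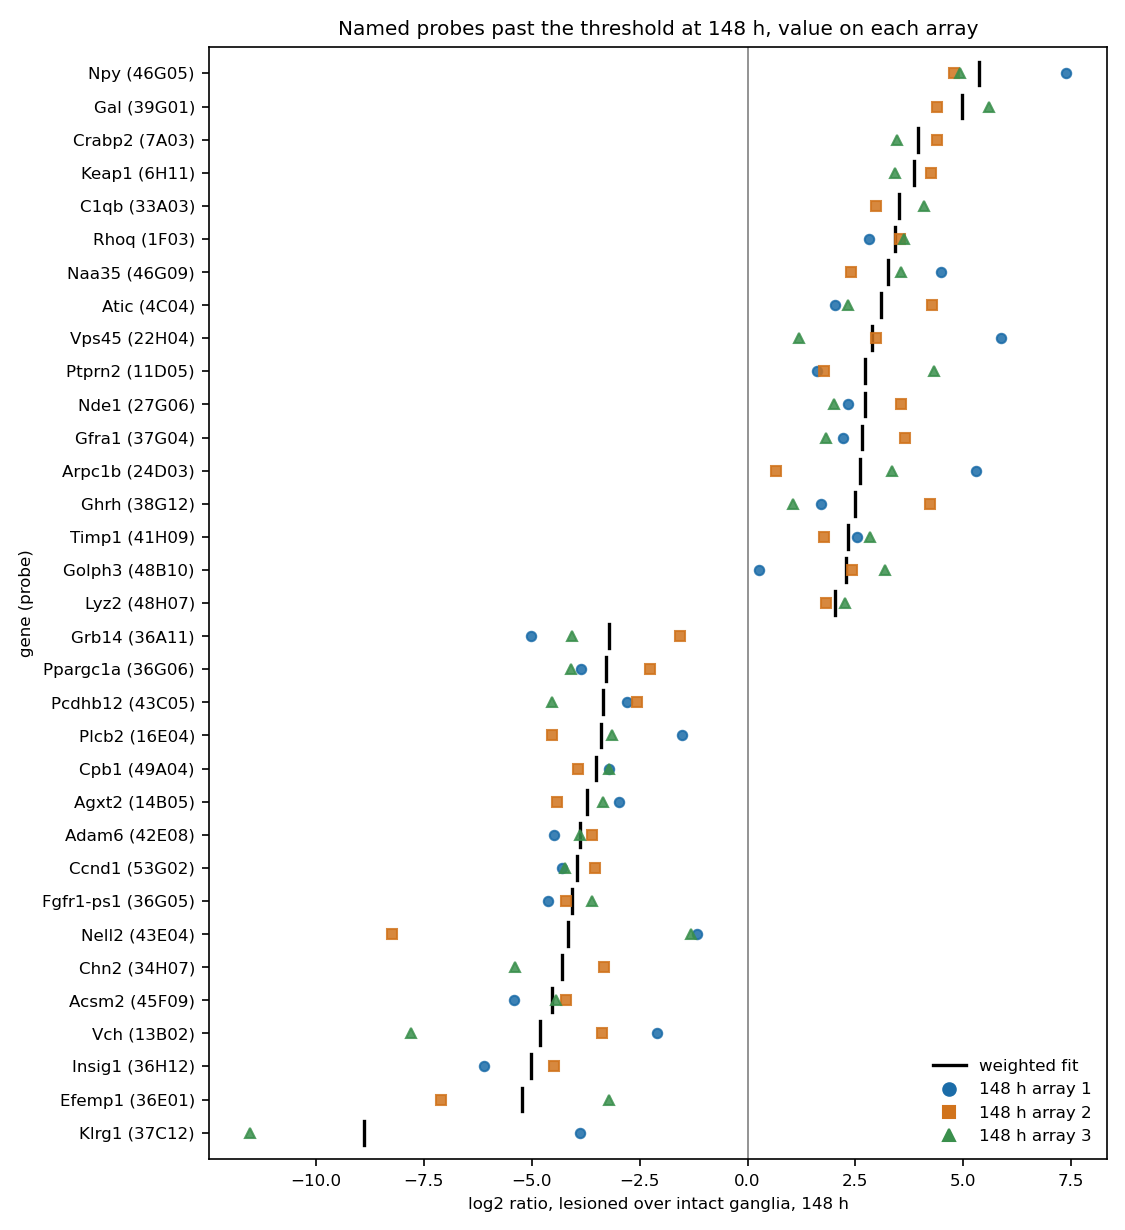
Log2 ratio of lesioned over intact ganglia (x axis) on each array at 148 h for 33 named probes past the threshold (y axis), with circles, squares and triangles for arrays 1, 2 and 3 and a black bar for the weighted fit. Npy lies highest, at 7.38, 4.79 and 4.92, and probes such as Arpc1b, Vps45, Nell2 and Klrg1 spread over several log2 units although their arrays share a sign.

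Npy and Gal had the highest fitted ratios among the named probes that passed. Neuropeptide Y (Npy, probe 46G05), a peptide that restrains transmitter release, had log2 ratios of 7.38, 4.79 and 4.92 on arrays 1, 2 and 3. All 3 arrays lay far above 0, and the fitted value of 5.36 ± 0.40 (SE, adjusted p = 6.47e-07) was a 41.1-fold higher level in lesioned ganglia. Galanin (Gal, 39G01), a peptide that modulates pain and neuronal survival, was not measured on array 1 and had 4.38 and 5.58 on arrays 2 and 3, a fitted value of 4.96 ± 0.50 (adjusted p = 4.09e-05). Vgf, whose product is a secreted peptide precursor, had 2.10, 1.70 and 2.37 at probe 1D09 (fit 2.04 ± 0.42, adjusted p = 0.00606). Its other probe, 52D09, had -0.46, 0.40 and 0.28 and did not pass (adjusted p = 0.880), so the probes of this gene disagreed. Without array 3 the adjusted p of Vgf 1D09 was 0.0710, whereas Npy stayed past the threshold whichever array was left out.

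The remaining peptides of the injury list did not join them. Of 11 tested probes for 10 neuropeptide genes, 3 were higher and 0 lower, and the list median was -0.27 against 0.01 over all tested probes. Vip, vasoactive intestinal peptide, had 3.38, 1.37 and 1.75 with an adjusted p of 0.176. Cck, cholecystokinin, had a fitted value of -1.34 (adjusted p = 0.0679) and Adcyap1, the precursor of PACAP, had -0.63 (adjusted p = 0.175). Npy1r, a receptor of neuropeptide Y singled out after its values were seen, had 2.22, 1.44 and 1.67 and was also higher (fit 1.68 ± 0.34, adjusted p = 0.00564).

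The promoters of the 3 higher peptide genes are shown because cAMP signalling acts through the cAMP response element, and that motif was searched in each of them. They are 300 bases from RefSeq on build GRCr8, 250 before and 50 after the annotated start, and lie at chr4:80211861-80212160 (plus strand, Npy), chr1:210084523-210084822 (minus strand, Gal) and chr12:25276971-25277270 (minus strand, Vgf). Capitals mark the motif TGACGTCA.
Npy: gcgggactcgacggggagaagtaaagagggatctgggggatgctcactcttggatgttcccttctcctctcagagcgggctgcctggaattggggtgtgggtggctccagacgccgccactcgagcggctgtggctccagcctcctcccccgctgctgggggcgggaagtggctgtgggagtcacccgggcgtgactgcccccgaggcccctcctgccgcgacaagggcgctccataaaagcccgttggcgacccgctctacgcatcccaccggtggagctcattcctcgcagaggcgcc
Gal: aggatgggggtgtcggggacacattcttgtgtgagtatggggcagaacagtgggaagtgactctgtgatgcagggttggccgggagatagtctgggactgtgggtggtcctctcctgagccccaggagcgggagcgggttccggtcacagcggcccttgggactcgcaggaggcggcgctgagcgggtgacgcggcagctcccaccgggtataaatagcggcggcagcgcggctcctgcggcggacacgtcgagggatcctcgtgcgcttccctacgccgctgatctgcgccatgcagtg
Vgf: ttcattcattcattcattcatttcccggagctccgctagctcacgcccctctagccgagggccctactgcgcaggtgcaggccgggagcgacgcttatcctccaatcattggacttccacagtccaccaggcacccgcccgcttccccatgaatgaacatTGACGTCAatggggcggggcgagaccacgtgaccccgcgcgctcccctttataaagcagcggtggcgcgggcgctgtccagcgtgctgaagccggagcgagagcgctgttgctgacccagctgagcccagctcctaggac

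The element TGACGTCA, read on both strands, stood at bases -90 to -83 of the Vgf promoter and was not in these windows of Npy or Gal. It was in 612 of all 33469 promoters of the table (1.83%). Among the named genes that passed at 148 h, it was in 2 of 27 promoters of higher genes (Vgf and Golph3) and in 1 of 23 of lower genes (Ppargc1a). The AP-1 motif TGANTCA, which no copy of TGACGTCA contains, was in 1 of 27 higher promoters (Mal) and 1 of 23 lower promoters (Efemp1), against 7.33% of all promoters. The STAT motif TTCNNNGAA was in 1 of 27 (Gclm) and 2 of 23 (Cpa3 and Vch), against 8.87% of all. These are matches of letters only.

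The nociceptor peptide genes Tac1 and Calca were lower in lesioned ganglia. Tac1, the precursor of substance P, had log2 ratios of -1.90, -1.26 and -1.32 on the 3 arrays and a fitted value of -1.41 ± 0.30 (adjusted p = 0.00698), a 2.66-fold lower level in lesioned ganglia. Calca, which encodes the calcitonin gene-related peptide, fell at both of its probes, with -2.07, -1.55 and -1.40 at 35C05 (fit -1.60 ± 0.35, adjusted p = 0.00808) and -0.90, -0.84 and -0.94 at 52C03 (fit -0.89 ± 0.20, adjusted p = 0.00915). Every array was below 0 at these 3 probes. Of the 14 tested probes of the nociceptor list, 3 were lower, all of Tac1 and Calca, and 0 higher, with a median of -0.33, against 3.95% lower and 5.18% higher over all tested probes. The sodium channel Scn10a had -1.04 (adjusted p = 0.113), somatostatin (Sst) had -1.17 (adjusted p = 0.258), and the ATP receptor P2rx3 had -0.06 (adjusted p = 0.956). Trpv1, the capsaicin receptor, was measured on 1 array only and was not tested.

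Among receptors for growth factors, only Gfra1 of the tested list members passed. Gfra1, the co-receptor through which GDNF signals, had log2 ratios of 2.20, 3.64 and 1.83, all above 0, and a fitted value of 2.66 ± 0.49 (adjusted p = 0.00289), a 6.30-fold higher level. Without array 2 its value was 2.01 with an adjusted p of 0.0603. Of 14 tested probes of the neurotrophin and GDNF families, 1 was higher and 0 lower, and the median was -0.52. The 2 probes of Ret, the signalling partner of Gfra1, had 1.18 and -0.26, with adjusted p of 0.246 and 0.742. Gfra3, the artemin co-receptor, had -1.03 (adjusted p = 0.207), and the 2 probes of the low-affinity neurotrophin receptor Ngfr had -0.65 and -1.17 (adjusted p = 0.158 and 0.0789).

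In the list of genes associated with regeneration, 7 of 33 tested probes were higher and 2 lower, against 5.18% higher and 3.95% lower over all tested probes, and the list median was 0.53. Stmn4, a stathmin that binds tubulin, had 3.04, 1.77 and 2.25 (fit 2.21 ± 0.33, adjusted p = 0.000590). Gap43, a growth cone protein, had 1.45, 1.50 and 1.27 (fit 1.40 ± 0.27, adjusted p = 0.00394) and its SD between arrays was 0.122, against a median of 0.798 over all called probes. Both stayed past the threshold whichever array was left out. Crabp2, which carries retinoic acid to its nuclear receptor, was measured on arrays 2 and 3 at 4.39 and 3.46 (fit 3.94 ± 0.73, adjusted p = 0.00439). Hspb1, a small heat shock protein of injured neurons, was higher at both probes, with 0.99, 1.13 and 1.06 at 9H02 (fit 1.08 ± 0.23, adjusted p = 0.00808) and 1.18, 1.37 and 0.60 at 52D12 (fit 1.04 ± 0.29, adjusted p = 0.0326). The adhesion molecule Cd44 had 3.20, 0.48 and 1.94 on the arrays (fit 1.59 ± 0.47, adjusted p = 0.0395). Ncam1, also an adhesion molecule, had 0.52, 0.87 and 1.69 at probe 32H02 (fit 1.12 ± 0.33, adjusted p = 0.0405). The other Ncam1 probe, 52C11, had 2.49, 0.97 and -0.23 and did not pass (adjusted p = 0.396). The lower ones were Mt1, a metallothionein, at probe 52G03 (fit -0.92 ± 0.22, adjusted p = 0.0131), and Nrn1, the neurite-promoting neuritin (fit -0.99 ± 0.29, adjusted p = 0.0422). The other probes of Mt1 had -0.77 and 0.82 and did not pass (adjusted p = 0.180 and 0.322), and they lay on opposite sides of 0.

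Several genes that the study discusses did not pass at 148 h. Il6, a cytokine, had -0.65 (adjusted p = 0.369), Slpi, a protease inhibitor, had 0.95 (adjusted p = 0.662), and Arg1, arginase, had 0.37 (adjusted p = 0.853). Sprr1a had 1.37, -0.54 and -1.10, and the 2 probes of Basp1, a growth cone protein, had 0.30 and -0.64. None of these probes passed the test. The Il6 probe, 26B01, had only 0.32, 0.29 and 0.37 on the arrays at 48 h. By quantitative PCR, the study found a marked rise of this cytokine after the lesion. The study also describes such arrays as narrower in dynamic range than quantitative PCR. The missing call for Il6 at 148 h therefore does not show that its level was unchanged. Atf3, a transcription factor used as a marker of axotomized neurons, was not measured on any of the 3 arrays, so its state at 148 h is unknown here. The IL-6 family list as a whole had 0 of 8 tested probes past the threshold, although its fitted values ran between -2.32 and 1.29.

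Among cytoskeletal genes, Nefl, the light neurofilament subunit, fell at probe 52A12, with -1.15, -0.96 and -0.75 (fit -0.92 ± 0.20, adjusted p = 0.00856). Its other probe had a fitted value of -0.74 and an adjusted p of 0.108. Actg1, a cytoplasmic actin, was higher (1.42 and 1.12 on arrays 2 and 3, fit 1.28 ± 0.36, adjusted p = 0.0340). With Stmn4, that made 2 higher and 1 lower of 19 tested probes in the neurofilament and cytoskeleton list. Arpc1b, a subunit of the complex that branches actin, had 5.29, 0.65 and 3.34, a spread of over 4 log2 units around its fit of 2.61 ± 0.54 (adjusted p = 0.00609). Rhoq, a small GTPase of actin and membrane traffic, was tighter, with 2.82, 3.54 and 3.63 (fit 3.43 ± 0.52, adjusted p = 0.000798).

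A pair of macrophage markers was higher in lesioned ganglia. C1qb, a chain of complement C1q, was measured on arrays 2 and 3, at 2.98 and 4.08 (fit 3.51 ± 0.64, adjusted p = 0.00289, 11.4-fold). Lyz2, lysozyme of macrophages and neutrophils, had 1.83 and 2.26 on the same arrays (fit 2.03 ± 0.49, adjusted p = 0.0161). The other tested macrophage markers did not pass: Aif1, the microglial and macrophage marker Iba1, had -0.48, and the cathepsins Ctss and Ctsz had -0.10 and -0.27. Only 5 of the 13 macrophage genes on the array could be tested at 148 h. Csf1r, Ptprc, Cd53 and Laptm5 were measured on no array, and Cd14, Itgam, Cx3cr1 and Fcgr2a on 1 array each, at 1.11, -0.03, 0.99 and 1.47.

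Markers of other immune cells gave few calls, and no B cell gene of the list was on the array. Klrg1, a receptor of T and natural killer cells, had -3.89 and -11.52 on arrays 1 and 3 (fit -8.90 ± 2.18, adjusted p = 0.0437), the widest disagreement between arrays of any named gene. The call was lost when the arrays were scaled to an equal spread (adjusted p = 0.0662), and the other 7 tested T and natural killer cell probes did not pass. Cpa3, a mast cell protease, had -1.66 and -6.49 on arrays 2 and 3 (fit -3.98 ± 1.01, adjusted p = 0.0268) and was the only 1 of 7 granulocyte and mast cell probes to pass. The cytokine Il1b had -1.04, -1.75 and -1.21 at probe 52A11 (fit -1.40 ± 0.39, adjusted p = 0.0315). It was the only chemokine or interleukin probe past the threshold of 33 tested. The same probe already ran between -1.13 and 0.01 on the first-day arrays. The other Il1b probe, 25H04, was measured on no array at 148 h.

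Few glial markers passed. Of 10 tested myelinating Schwann cell probes, 1 was higher and the median was -0.01. That probe was Mal, a myelin proteolipid, with 1.39 and 3.09 on arrays 2 and 3 (fit 2.21 ± 0.60, adjusted p = 0.0295). Mbp, myelin basic protein, had -0.63, Pmp22 had -0.01 and Sox10, the transcription factor of the glial lineage, had 0.53, and none of the 3 passed. Of 10 satellite glia probes, only Vim, an intermediate filament, passed, with 0.73, 0.83 and 0.91 (fit 0.84 ± 0.25, adjusted p = 0.0438). Gfap, a filament of reactive glia, had 3.22, -0.48 and 0.93, which straddled 0 (adjusted p = 0.395).

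In the extracellular matrix list, 2 of 27 tested probes were higher and 1 lower, near the 5.18% and 3.95% of all tested probes. Timp1, an inhibitor of matrix metalloproteinases, had 2.53, 1.76 and 2.83 (fit 2.33 ± 0.33, adjusted p = 0.000414) and stayed past the threshold whichever array was left out. Lamb2, a laminin chain, had 0.74 and 2.95 on arrays 2 and 3 (fit 1.80 ± 0.53, adjusted p = 0.0424). Efemp1, a fibulin, had -7.10 and -3.20 on the same arrays (fit -5.23 ± 1.22, adjusted p = 0.0133). Of the 7 endothelial probes, Tie1, a vascular receptor kinase, was lower (fit -1.98 ± 0.57, adjusted p = 0.0361).

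**Figure D2:**
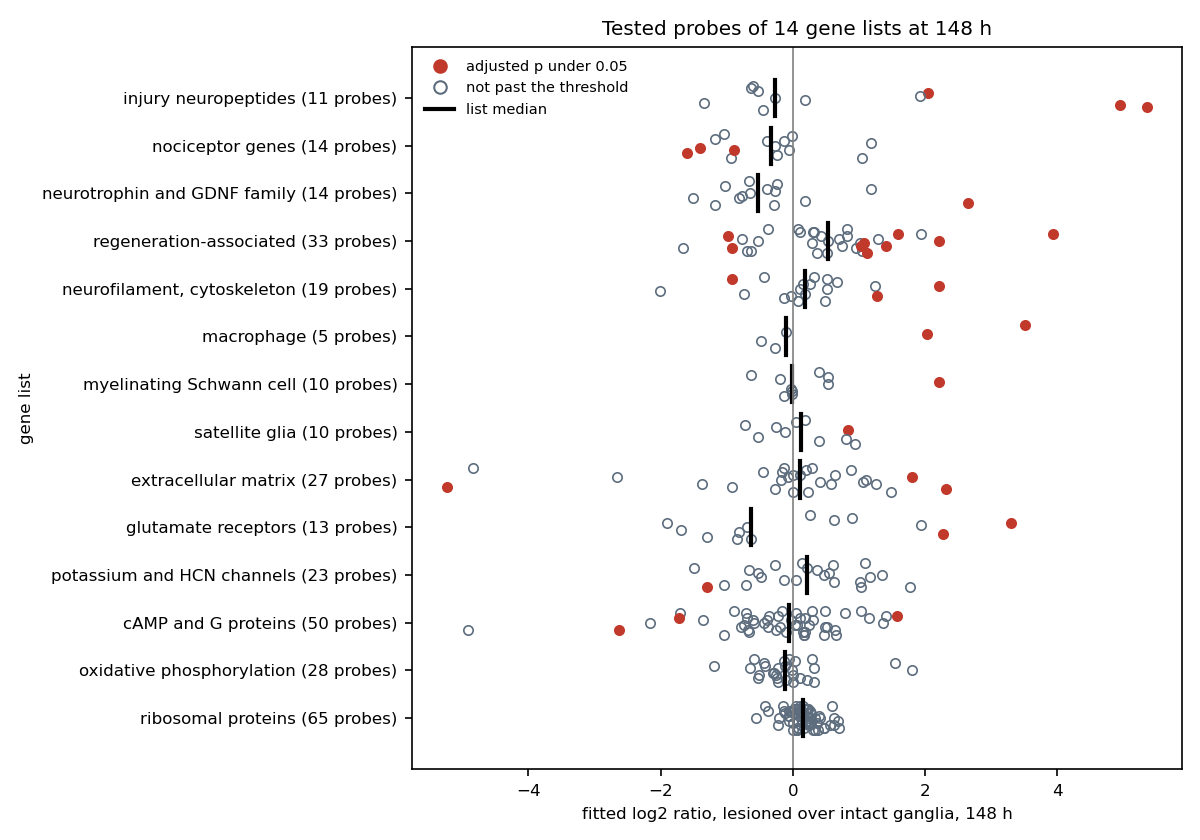
Fitted log2 ratio of lesioned over intact ganglia at 148 h (x axis) for the tested probes of 14 gene lists (y axis), with filled red circles past the threshold, open circles not past it and a black bar at each list's median. Calls are few in each list, 3 of 11 neuropeptide probes and 9 of 33 regeneration probes, and the 65 ribosomal protein probes stay between -0.55 and 0.70 with no call.

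Channels and receptors gave scattered calls. None of 6 sodium channel probes passed, and 1 of 23 potassium and HCN channel probes did: Kcnd1, an A-type channel (fit -1.30 ± 0.35, adjusted p = 0.0278). Of 9 calcium channel probes, Cacng1, an accessory subunit, was higher (1.48 and 2.10 on arrays 2 and 3, fit 1.77 ± 0.46, adjusted p = 0.0300), and Cacna1i, a T-type channel, was lower (-1.18, -1.58 and -2.06, fit -1.68 ± 0.40, adjusted p = 0.0147). Both glutamate receptor probes that passed of 13 tested were higher. Gria1, an AMPA receptor subunit, had 2.03 and 4.70 on arrays 2 and 3 (fit 3.31 ± 0.55, adjusted p = 0.00177), and Grik3, a kainate receptor subunit, had 2.82 and 1.68 (fit 2.27 ± 0.46, adjusted p = 0.00645). The median of that list was nevertheless -0.63. None of 7 GABA and glycine receptor probes passed.

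In vesicle traffic, Vamp3, a SNARE of endosomes, had 1.44, 2.02 and 2.15 (fit 1.95 ± 0.37, adjusted p = 0.00302), and Snap91, a clathrin adaptor of synapses, had 0.48, 2.06 and 0.84 (fit 1.28 ± 0.32, adjusted p = 0.0211). They were the 2 higher probes of 36 in the synaptic vesicle list, in which 0 were lower, a share near the 5.18% higher of all tested probes. Vps45 and Golph3, proteins of endosomal and Golgi traffic, were also higher but uneven, with 5.87, 2.97 and 1.19 for Vps45 (fit 2.87 ± 0.66, adjusted p = 0.0119) and 0.27, 2.42 and 3.19 for Golph3 (fit 2.28 ± 0.41, adjusted p = 0.00263). Vps45 was no longer past the threshold without array 1 (adjusted p = 0.0631).

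The cAMP and G protein list had 1 higher and 2 lower of 50 tested probes, with a median of -0.06, against 5.18% higher and 3.95% lower over all tested probes, so that its share of lower probes was near the background. Prkar2b, a regulatory subunit of protein kinase A, had 2.38, 1.90 and 0.82 (fit 1.58 ± 0.34, adjusted p = 0.00754). Adcy2, an adenylyl cyclase, had -2.27, -3.27 and -2.14 at probe 52E09 (fit -2.64 ± 0.56, adjusted p = 0.00754). That probe lay below 0 on every array of the series, from 4 h on. The other Adcy2 probe, 20A02, was measured on no array at 148 h and disagreed at the neighbouring times. Its means were 0.48 at 48 h and 0.80 at 296 h. Gng11, a G protein gamma subunit, had -1.37, -1.63 and -1.99 (fit -1.72 ± 0.42, adjusted p = 0.0144). The groups of arrays did not cross 0 at any of the 3 probes that passed.

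The ribosomal, oxidative phosphorylation, proteasome and glycolysis lists gave few calls. None of 65 ribosomal protein probes, 28 oxidative phosphorylation probes or 28 proteasome probes passed, with medians of 0.16, -0.12 and 0.06. In the glycolysis list, which contains the Gapdh spots, 1 of 72 probes was higher and 1 was lower. The glucose transporter Slc2a1 was higher, at 2.88 and 1.27 on arrays 2 and 3 (fit 2.11 ± 0.55, adjusted p = 0.0245). The hexokinase Hk2 was lower, with -3.60, -1.14 and -3.27 (fit -2.45 ± 0.73, adjusted p = 0.0475). In the cholesterol list, 1 of 11 tested probes was higher and 1 lower. The higher one was Lss, which makes lanosterol. Lss had 1.55 and 3.13 on arrays 2 and 3 (fit 2.31 ± 0.51, adjusted p = 0.0103). The lower one was Insig1, which retains the sterol sensor in the endoplasmic reticulum. Insig1 had -6.10 and -4.48 on arrays 1 and 2 (fit -5.01 ± 1.19, adjusted p = 0.0170). In the heat shock list, 3 of 17 tested probes were higher and 1 lower, against 5.18% and 3.95% over all tested probes. The higher ones were both Hspb1 probes and 1 of Hspa1b. Hspa1b had 2.15 and 1.27 on arrays 2 and 3 (fit 1.73 ± 0.46, adjusted p = 0.0282). The lower one was Hspa1a 52E12, with -1.25, -0.59 and -1.22 (fit -0.96 ± 0.29, adjusted p = 0.0475). It lay below 0 on every first-day array as well. The other Hspa1a probe, 27C04, was measured on array 2 only, at 1.55, and was not tested. Hspa1a and Hspa1b encode nearly identical chaperones, and their called probes went opposite ways, which leaves both genes uncertain.

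In the oxidative stress and metal list, 1 of 31 tested probes was higher and 3 were lower, against 5.18% higher and 3.95% lower over all tested probes. Gclm, a subunit of the enzyme that starts glutathione synthesis, had -0.29 and 3.82 on arrays 1 and 2 and passed narrowly (fit 2.48 ± 0.75, adjusted p = 0.0495), with its arrays on opposite sides of 0. It was past the threshold in none of the other settings. Mt3, the neural metallothionein, had -1.74, -1.23 and -1.14 (fit -1.30 ± 0.29, adjusted p = 0.00856), and Gstm1, a glutathione transferase, had -1.05, -1.34 and -1.23 (fit -1.24 ± 0.31, adjusted p = 0.0161). Keap1, which holds the antioxidant transcription factor Nfe2l2 inactive, was among the highest genes measured on 2 arrays, at 4.25 and 3.41 on arrays 2 and 3 (fit 3.85 ± 0.52, adjusted p = 0.000414). Nfe2l2 itself and the glutathione reductase Gsr, both singled out after their values were seen, were measured on arrays 2 and 3 only. Nfe2l2 had 3.15 and 1.80 (fit 2.50 ± 0.54, adjusted p = 0.00885). Gsr was uneven, with 0.46 and 3.98 (fit 2.15 ± 0.52, adjusted p = 0.0179).

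Outside these lists, the highest named genes measured with the same sign on all 3 arrays included Naa35, a subunit of an N-terminal acetyltransferase, with 4.47, 2.39 and 3.57 (fit 3.26 ± 0.42, adjusted p = 0.000244). Atic, an enzyme of purine synthesis, had 2.03, 4.28 and 2.33 (fit 3.08 ± 0.50, adjusted p = 0.00145). Nde1, a dynein regulator, had 2.32, 3.56 and 2.01 (fit 2.72 ± 0.48, adjusted p = 0.00201). These 3 genes stayed past the threshold whichever array was left out. Ptprn2, a phosphatase-like protein of dense-core vesicles, had 1.62, 1.77 and 4.33 (fit 2.72 ± 0.48, adjusted p = 0.00212), and Ghrh, growth hormone-releasing hormone, had 1.70, 4.22 and 1.04 (fit 2.49 ± 0.65, adjusted p = 0.0217). Each of these rested in part on 1 array, since the adjusted p of Ptprn2 was 0.0726 without array 3 and that of Ghrh was 0.331 without array 2. Casp9, the initiator caspase of the mitochondrial pathway, was the only 1 of 15 apoptosis probes to pass (1.36 and 2.47 on arrays 2 and 3, fit 1.89 ± 0.48, adjusted p = 0.0211).

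The lowest named ratios lay more than 3 log2 units below 0, and several were uneven between arrays. Vch had -2.10, -3.36 and -7.80 (fit -4.81 ± 0.76, adjusted p = 0.00127). Nell2, a secreted protein of neurons, had -1.18, -8.24 and -1.31, so that its fit of -4.16 ± 1.03 (adjusted p = 0.0170) was -1.24 without array 2 and no longer past the threshold (adjusted p = 0.484). Ppargc1a, a coactivator of mitochondrial genes, was steadier at -3.85, -2.26 and -4.08 (fit -3.28 ± 0.46, adjusted p = 0.000414). Ccnd1, cyclin D1, had -4.31, -3.54 and -4.23 at probe 53G02 (fit -3.96 ± 0.35, adjusted p = 1.94e-06), while its other probe had -1.17, -0.98 and -1.58 and did not pass (adjusted p = 0.306). The low group also held Acsm2 (-4.54), Fgfr1-ps1 (-4.06), Adam6 (-3.89), Agxt2 (-3.71), Cpb1 (-3.51), Plcb2 (-3.39), Pcdhb12 (-3.35) and Grb14 (-3.22), and, on 2 arrays, Chn2 (-4.31). Ryr1, the calcium release channel of muscle, had -3.84 and -2.24 at probe 21G05 (fit -3.07 ± 0.64, adjusted p = 0.00801), but its other probe had -0.14 (adjusted p = 0.886).

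Single arrays decided many of these calls. Of 21 named higher probes measured on all 3 arrays, 10 stayed past the threshold whichever array was left out, and of 27 named lower ones, 8 did. Without array 1, 11 named probes were lost, with adjusted p up to 0.140, among them Vps45, Grb14, Hk2 and Mt1. Without array 2, 21 were lost, with adjusted p up to 0.484, among them Gfra1, Golph3, Ghrh, Nell2, Snap91, Agxt2, Adam6, Cpb1, Plcb2, Adcy2, Gng11, Cacna1i, Kcnd1, Gstm1 and Klrg1. Without array 3, 27 were lost, with adjusted p up to 0.290. These included all but Gfra1, Ghrh, Nell2 and Klrg1 of the genes just named for array 2, and in addition Vgf 1D09, Ptprn2, Vamp3, Gclm, Grb14, Hk2, Pcdhb12, Mt1, Hspb1 9H02 and Calca 52C03. Vim, Tie1, Il1b, Acsm2, Hspa1a and Hspb1 52D12 were lost whichever array was left out. Klrg1, Chn2 and Gclm were each lost without an array that had not measured them. The probes measured on 2 arrays, such as those of Gal, C1qb and Lyz2, could be tested only with both of their arrays.

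Lower calls were also unevenly placed among the plates that the probe names give. Plates 36, 51, 52 and 53 held 54 of the 126 lower probes and 6 of the 165 higher probes among 298 tested, while the other plates held 72 lower and 159 higher among 2889. The 52C03, 52G03, 52A12 and 53G02 probes of Calca, Mt1, Nefl and Ccnd1 came from these plates. So did the lower probes of Ppargc1a, Fgfr1-ps1, Insig1, Efemp1, Grb14, Adcy2, Il1b, Tie1, Cacna1i and Hspa1a. The part of the plates in these lower ratios was not tested, and 35C05 of Calca, Tac1 and Mt3 lay on other plates.

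The first-day arrays were used to ask which ratios differed from those of the first day. The 148 h ratio differed from the mean of the first day at 127 of 3094 tested probes (4.1%), 91 of them higher at 148 h (2.94%) and 36 lower (1.16%). Without array 1, 2 or 3 at 148 h this count was 92, 62 or 23. This difference cancels any dye effect of a probe that is constant over the arrays, which the 148 h ratio alone cannot do. It does not separate time from the lower completeness and wider spread of the 148 h arrays, because no first-day array shared these. Of 273 probes called at 148 h that had a first-day value, 122 also passed this difference with the same sign. A further 90 of the 151 that did not pass it were already past the threshold with the same sign in the first-day mean, in which 1209 of 4946 probes (24.4%) were called.

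Of the probes tested against the first day, 2 of 11 in the neuropeptide list and 2 of 5 in the macrophage list were higher at 148 h, against 2.94% of all. They were those of Npy and Gal and of C1qb and Lyz2. These genes and lists were chosen with earlier results of these data known, so the shares are descriptive only. Npy had a first-day mean of -0.03, and its 148 h ratio was 5.39 ± 0.41 above it (SE, adjusted p = 5.78e-07). Gal had 0.04 in the first-day mean and a difference of 4.92 ± 0.51 (adjusted p = 6.43e-05). C1qb differed by 3.29 ± 0.65 (adjusted p = 0.00817) and Gfra1 by 2.33 ± 0.50 (adjusted p = 0.0129). Timp1 (2.41), Stmn4 (1.96), Gap43 (1.17) and Tac1 (-1.25) passed as well, with adjusted p between 0.000504 and 0.0235. By contrast Vgf 1D09 was already at 0.97 in the first-day mean, and its difference of 1.07 ± 0.43 did not pass (adjusted p = 0.180). Ccnd1 53G02 had -3.45 in the first-day mean against -3.96 at 148 h, a difference of -0.51 ± 0.35 that did not pass either (adjusted p = 0.517).

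**Figure D3:**
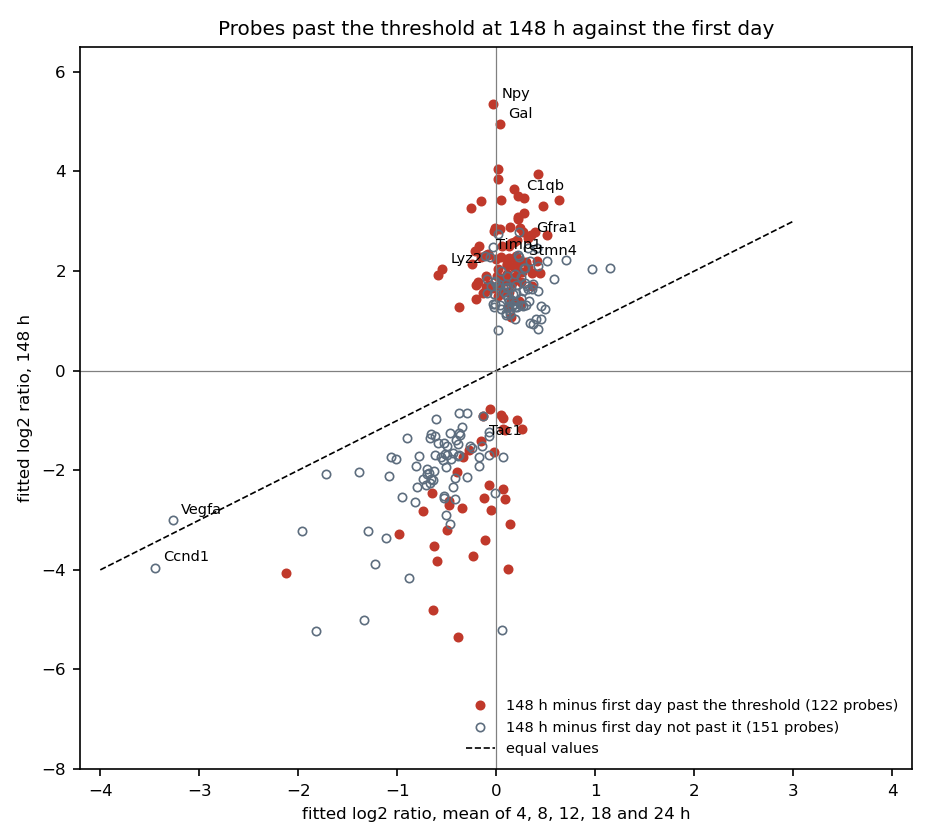
Fitted log2 ratio at 148 h (y axis) against the mean of 4, 8, 12, 18 and 24 h (x axis) for 273 probes past the threshold at 148 h, with filled red circles where the difference passed (122 probes) and open circles where it did not (151 probes). Npy, Gal and C1qb stand near 0 on the first day, while Ccnd1 and a probe of Vegfa lie close to the dashed line of equal values.

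Of the called probes, 7 were past the threshold with the opposite sign in the first-day mean. Lyz2 was higher at 148 h (2.03) but below 0 in the first-day mean (-0.55, adjusted p = 0.000432). The cell cycle inhibitor Cdkn1a had 1.88 and 2.97 on arrays 2 and 3 at probe 49H06. Its fit was 2.41 at 148 h and -0.21 in the first-day mean. The other Cdkn1a probe, 29D11, had -0.41, 0.23 and 0.23 at 148 h and did not pass (adjusted p = 0.974). Naa35 had 3.26 at 148 h and -0.26 in the first-day mean, and the other 2 genes higher at 148 h were Vax1 and Fgfr4. Nrn1 had -0.99 at 148 h and 0.21 in the first-day mean (adjusted p = 0.0220), and Pde4dip had -1.17 and 0.26.

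Against its neighbours in time, the 148 h ratio did not pass for any probe. Between 148 h and 48 h, 0 of 3090 probes passed in limma's test, with 242 below an unadjusted p of 0.05 and a smallest adjusted p of 0.0796. Between 148 h and 296 h, 0 of 2389 passed, with 180 below an unadjusted p of 0.05 and a smallest adjusted p of 0.0585. With 3 arrays against 3 and against 2, and with the spread given above, these counts do not show that the times were alike. Npy had 7.38, 4.79 and 4.92 at 148 h, 2.51 and 3.10 on the 2 arrays that measured it at 48 h, and 3.98 and 5.34 at 296 h, a difference from 48 h of 2.58 ± 0.55 (adjusted p = 0.0812). Gal had 4.38 and 5.58 at 148 h, 4.28, 3.89 and 5.48 at 48 h, and 2.00 on the single array that measured it at 296 h. Timp1 had 2.53, 1.76 and 2.83 at 148 h, 2.83, 1.26 and 1.94 at 48 h, and 0.07 and 0.59 at 296 h, where both arrays lay below all 3 of 148 h. C1qb at 2.98 and 4.08 lay above its 3 arrays at 48 h (2.43, 1.58 and 1.02) and its 2 at 296 h (0.90 and 1.37), a difference from 48 h of 1.65 ± 0.81 (adjusted p = 0.643).

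**Figure D4:**
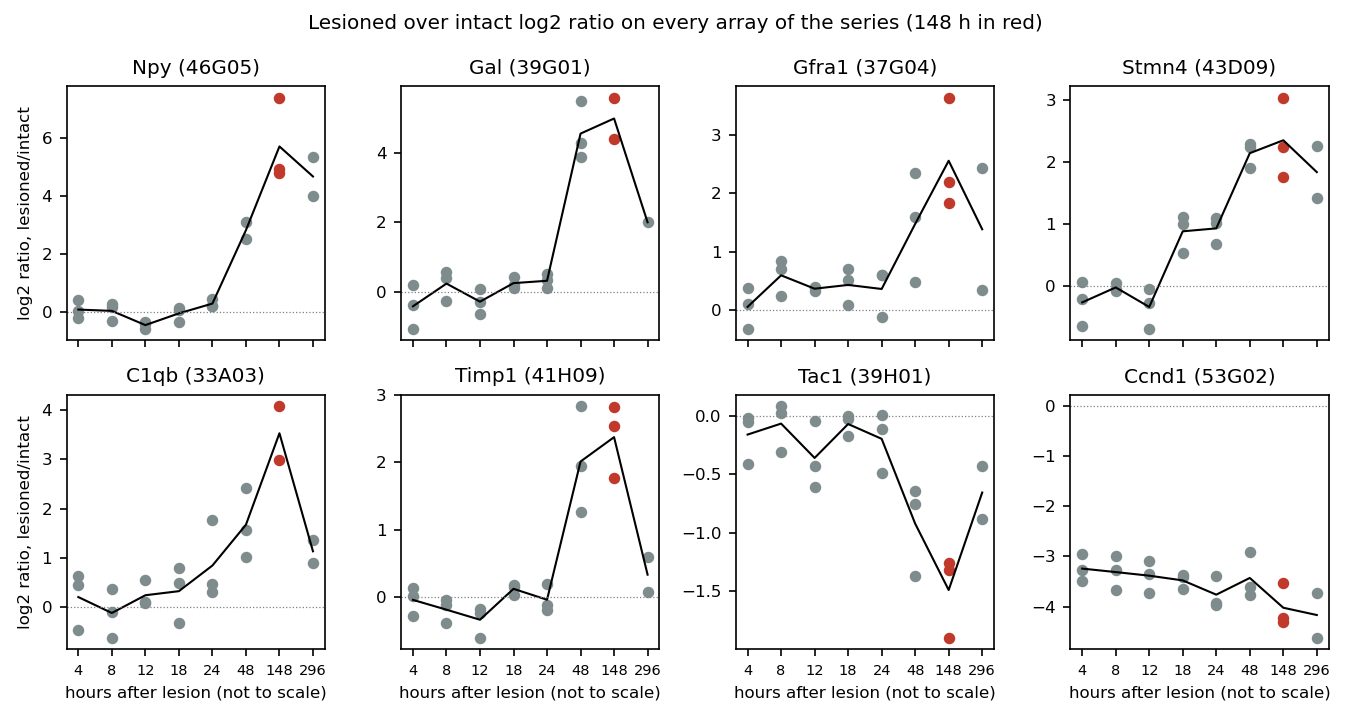
Log2 ratio of lesioned over intact ganglia (y axis) on every array that measured 8 genes, by hours after the lesion (x axis, evenly spaced and not to scale), with the 148 h arrays in red, all others in grey and a line through the mean of each time. Npy, Gal, Gfra1, Stmn4, C1qb and Timp1 each lie higher on every 148 h array that measured them than on any first-day array. Tac1 lies between -1.90 and -1.26 at 148 h, and Ccnd1 is far below 0 on every array.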

How the data were processed

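The labels describe 23 two-colour spotted-oligonucleotide arrays labelled with 3DNA dendrimers, with lesioned RNA in Cy5 and intact RNA in Cy3. The deposited values are linear ratios of lesioned over intact signal, 1 per probe and array, as made by the authors. How background was corrected and ratios were normalized is not given in the sources used here. Intensities were not used, so signal above background is unknown. Missing ratios were left missing. Array medians at 148 h lay between 1.02 and 1.06, so the ratios were taken as already normalized and only log2 was applied. No dye swap was made, so a dye effect of a single probe cannot be told apart from the lesion at 148 h alone.

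A mean per time was fitted to all 23 arrays with limma 3.58.1 in R 4.3.3, with array weights (0.22, 0.46 and 0.43 at 148 h), empirical Bayes moderation and Benjamini-Hochberg adjustment over all tested probes at 0.05 (two-sided). Array weights were made the main setting because an earlier look at these data had shown a wider spread on arrays with many missing probes. Both weightings were also run on simulated data with each array's gaps. The simulated noise was drawn from the same array weights, so that run could not decide between array weights and equal weights. Of 5088 probes, 4423 carried 1 gene symbol, 2 several and 663 none in the platform annotation of an older date, and 4375 were matched to RefSeq by Entrez identifier with 0 symbols changed.

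Named genes were Npy, Gal, C1qb, Lyz2 and Gfra1, the 12 highest and 12 lowest named probes with the same sign on 3 arrays, the 4 highest and 4 lowest on 2 arrays, up to 4 members past the threshold in each gene list, and the genes the study discusses. Other genes in the text were chosen after their values were seen. The members and lists were chosen with earlier results of these data known. Some list members that a name pattern had caught wrongly (kinases, pseudogenes and binding proteins of similar name) were removed after values were seen. The number of arrays limits the precision. The labels' replicate numbers were checked and did not pair arrays across times. The alternatives tried were other weightings, centring, scaling, probe filters, gene means, left-out plates and left-out arrays.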

Additional observations from a re-analysis of the deposited data

Results flagged for a closer look

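The difference between the 148 h ratio and the mean ratio of the first day passed the threshold for 39 named probes. They are listed for that reason. Time cannot be told apart in this difference from the lower completeness and wider spread of the 148 h arrays. The values are differences of log2 ratios, 148 h minus first day, from limma's fit.

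Among neuronal and growth-related genes, the differences were 5.39 for Npy, 4.92 for Gal, 3.52 for Crabp2, 2.33 for Gfra1, 1.96 for Stmn4, 1.17 for Gap43 and 0.93 for Hspb1 (9H02). The nociceptor peptides and the neurofilament gene had -1.25 (Tac1), -1.32 and -0.94 (Calca 35C05 and 52C03) and -0.79 (Nefl). Receptors and channels had 2.83 (Gria1), 2.23 (Grik3) and 1.95 (Cacng1). The macrophage markers had 3.29 (C1qb) and 2.58 (Lyz2), the mast cell protease Cpa3 had -4.09 and the matrix gene Timp1 had 2.41.

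Genes of traffic, cytoskeleton and signalling had 2.88 (Vps45), 2.79 (Rhoq), 2.43 (Golph3), 2.41 (Arpc1b), 2.37 (Nde1), 2.21 (Ptprn2), 1.59 (Vamp3), 1.51 (Prkar2b) and -3.27 (Plcb2). The other higher genes were Keap1 at 3.83, Naa35 at 3.52, Atic at 2.86, Ghrh at 2.67, Lss at 2.11 and Casp9 at 1.89. The other lower genes were Vch at -4.17, Agxt2 at -3.48, Ryr1 (21G05) at -3.22, Cpb1 at -2.88, Ppargc1a at -2.30 and Fgfr1-ps1 at -1.94.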

How the results depend on the processing

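At 148 h the count of 291 probes became 931 with equal array weights, 553 in place of 127 against the first day, 76 and 48 in place of 0 against 48 h and 296 h, and 165 in place of 51 among list members. It was 0 when only the 148 h arrays were fitted, for all probes, list members and named genes alike, and 0 for the methods' t-test after adjustment. Leaving out 1 array in turn gave 88 to 198 probes at 148 h, 23 to 92 against the first day, 0 to 10 against 48 h, 0 to 1 against 296 h, 15 to 40 list members and 23 to 56 of 70 named probes. Gene means gave 5 probes against 48 h, and scaling gave 1 against 296 h. Other settings (per-time variance, centring, scaling, robust moderation, gene means, left-out plates) left the 148 h count between 227 and 294. The share of higher calls was 56.7%, 45.3% over probes measured on all 3 arrays (267 called) and 66.5% without plates 36, 52 and 53. Replicate numbers were shared only as names: same-numbered arrays deviated together with a mean r of 0.01, and a replicate block gave 267 probes at 148 h, 112 against the first day, 47 list members and 64 named probes. Signs turned only at probes not past the threshold. With gene means Mt1 22G06 was -0.29 and Basp1 28A06 was -0.16. Leaving out 1 array in turn, Vgf 52D09 lay between -0.0892 and 0.341 and Sprr1a between -0.819 and 0.418. Depth and signal over background are unknown for these ratios. The cause of these changes was not tested.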
